A study of Homo sapiens with 4 samples.

Results

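The 10 genes examined here encode subunits of SWI/SNF, the ATP-dependent chromatin remodelling complex that includes ARID1A, a subunit often lost by mutation in gastric cancer. They were taken by name from a table of YTHDF1-bound RNA windows. The cells were SNU638, an established line from a human gastric cancer. Of these genes, 6 of the 10 had at least 1 listed window, 31 of the 26819 windows of the table, which named 7550 genes in all. RNA immunoprecipitation sequencing (RIP-seq) had been carried out on 4 libraries, 2 of RNA pulled down with YTHDF1 (IP-YTHDF1) and 2 of input RNA. All 4 came from cells that overexpressed YTHDF1. The cells spent 24 h without serum before IFN-γ was added at 10 ng/ml, again for 24 h, so the overexpression and the IFN-γ are shared by IP-YTHDF1 and input alike. The overexpressed protein carried a FLAG tag per the study's methods, and no library without it or without IFN-γ was part of the comparison. Each listed window spans 50 bases and carries 1 value of signal, p and q from the authors' comparison of IP-YTHDF1 with input. No value belongs to a single library, so depth and the spread between replicates are unknown here, and no difference between 2 windows or 2 genes could be tested. Windows of 1 gene share a transcript and are not replicates, and whether a window was found in 1 or both replicates is not shown. What scale the signal value has is unknown. Of 5 epithelial marker genes, EPCAM, KRT8, KRT18 and KRT19 had a listed window and CDH1 had none. For leukocyte markers the count was 0 of 4 and for fibroblast markers 0 of 3, next to 31.8% of RefSeq protein-coding genes. A window is enrichment over input and not a measure of expression, so these counts do not check the cell type.

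SWI/SNF complexes slide or evict nucleosomes and so open promoters and enhancers to transcription factors. Each complex is built on an ATPase, SMARCA4 or SMARCA2. In the forms named next, the core includes SMARCC1, SMARCC2, SMARCB1 and SMARCE1. The canonical form, BAF, also holds ARID1A or its paralog ARID1B, and the polybromo form, PBAF, holds ARID2 and PBRM1. YTHDF1 is a cytoplasmic reader of N6-methyladenosine (m6A), a mark laid on messenger RNA mostly within the DRACH consensus.

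Sequence was at hand for the parts of the member windows that lie in the RefSeq promoter table (GRCh38.p14), and it is shown because these windows hold the 5′-most listed RNA of ARID1A and PBRM1. The ARID1A stretch is the first 28 bases of its first window, chr1:26696037-26696064 on the plus strand, and the PBRM1 stretch is the central 30 bases of its only window, chr3:52685813-52685842 on the minus strand. Both are written 5′ to 3′ on the transcribed strand, in lower case because neither holds a motif to mark.
ARID1A: gcggagagtcacagcggggccaggccct
PBRM1: ggccggaggagcaatagcagcagccgtggc
G and C made up 75.0% of the ARID1A stretch and 70.0% of the PBRM1 stretch, against a median of 60.7% and 60.0% in the last 28 and the last 30 bases of all 35116 entries of that table. The PBRM1 stretch is the centre of its window and not the end of an entry. Its background here and below thus comes from another position. DRACH was searched on the transcribed strand only, as AC after A or G, itself after A, G or T, and before A, C or T. It had 0 matches in both stretches, and so did GGAC, which overlaps it. Among all entries, DRACH occurred in 30.7% of the 28-base ends and 32.6% of the 30-base ends, and GGAC in 11.4% and 12.1%. The rest of these windows and the other member windows lie outside the table, so their letters were not read here. Another 7 bases of ARID1B were in the table and are too few to show.

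The first question was which SWI/SNF transcripts carried YTHDF1 windows. A window was listed for 6 of the 10 genes (60.0%, Wilson 95% interval 31.3% to 83.2%), next to 31.8% of the 20056 protein-coding genes of RefSeq (interval 31.1% to 32.4%). That background includes genes that SNU638 cells may not express, and the intervals cover counting error only. The listed genes were ARID1A, ARID1B, ARID2, PBRM1, SMARCA4 and SMARCA2, that is both BAF-specific subunits, both PBAF-specific subunits and both ATPases. No window was listed for SMARCC1 and SMARCC2, the paired scaffold subunits, for SMARCB1, which contacts the nucleosome and is lost in rhabdoid tumours, or for SMARCE1, which carries a DNA-binding HMG box. None of these 4 genes was listed under another name, and no window of any other gene lay within their RefSeq intervals. The level of their transcripts was not analysed here, so an unbound transcript and a scarce one cannot be told apart.

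The 6 genes held 31 windows, of which 26 were in ARID1A, ARID1B and SMARCA4. ARID1A and ARID1B had 9 windows each, SMARCA4 had 8, ARID2 had 3, and PBRM1 and SMARCA2 had 1 each. The median over listed protein-coding genes was 3 windows. A count of 9, the most listed for any gene, was reached by 2 of the 6 genes and by 12.8% of listed protein-coding genes, and a count of 8 or more by 3 of the 6 and by 15.9%. A single window was listed for 29.0% of protein-coding genes. ARID1A, ARID1B and SMARCA4 also had 140, 146 and 102 tested windows as inferred below, against a median of 35. The share of tested windows that passed was above the median of 9.09% over listed protein-coding genes in ARID1A (12.9%) and ARID1B (13.0%). It was under that median in SMARCA4 (7.84%), ARID2 (4.69%), SMARCA2 (2.94%) and PBRM1 (2.04%). No member window overlapped a window of another gene on its strand.

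**Figure D1:**
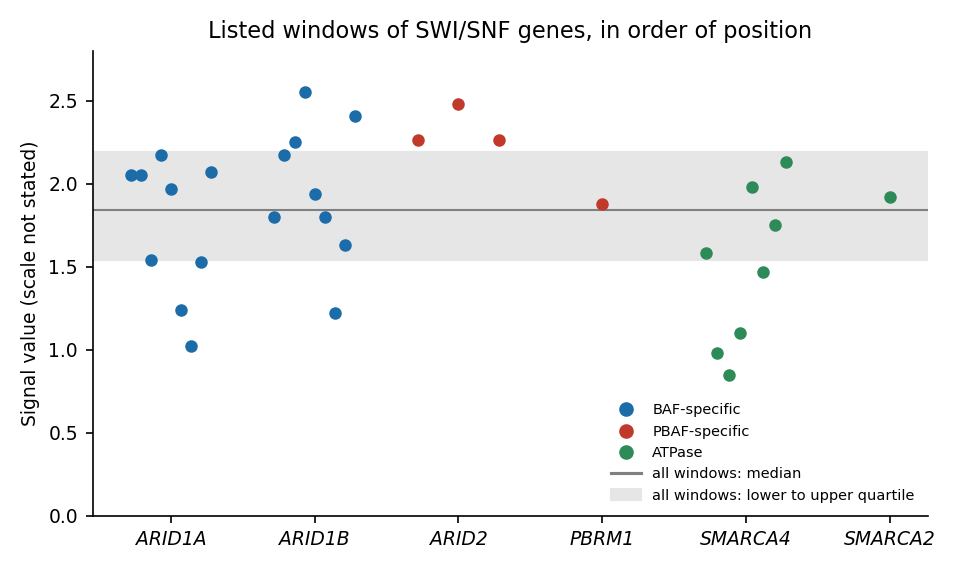
Signal value (unknown scale, linear axis) of each listed window of the 6 SWI/SNF genes that had one, left to right in order of genome position within each gene, and coloured by role. The line is the median of all listed windows, 1.84, and the grey band runs from 1.54 to 2.19; all 3 ARID2 windows lie above the band, and the lowest point is a SMARCA4 window at 0.85.

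The SWI/SNF windows had signal values from 0.85 to 2.55 with a median of 1.92. All 26819 listed windows, of which they are part, ran from 0.70 to 9.46 with a median of 1.84. The stricter limit of 0.001 on the q-value was met by 13 of the 31 windows (41.9%) and to 43.7% of all windows. By its strongest window, ARID1B came first with 2.55, followed by ARID2 with 2.48, ARID1A with 2.17, SMARCA4 with 2.13, SMARCA2 with 1.92 and PBRM1 with 1.88. The median of the 6 was 2.15, against 2.23 over all listed protein-coding genes, and with the median window of each gene in place of the strongest the order turned, at 1.93 against 1.91. ARID1B exceeded 74.2% of those genes and ARID2 69.7%, and the other 4 lay between 19.1% for PBRM1 and 45.0% for ARID1A. Without a spread between replicates, neighbours in this order cannot be told apart. More windows per gene also give a larger maximum, and ARID1A, with an inferred count of 140 tested windows, exceeded 98.1% of listed protein-coding genes in that count.

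ARID1A (ENSG00000117713, plus strand of chromosome 1) is a DNA-binding subunit of canonical BAF. Its 9 windows lay between positions 26696037 and 26697036, from base 23 to base 1022 of the RefSeq gene, a stretch of 1000 bases that is 1.16% of the 86090-base gene. They formed 4 blocks. The first was the single window at 26696037 to 26696086, with a signal value of 2.05 (q-value 0.00323). After a gap of 300 bases came the windows at 26696387 and 26696437, with signal values of 2.05 and 1.54. The strongest window followed at 26696537 to 26696586, with a signal value of 2.17 (q-value 0.000192). It exceeded 73.8% of all listed windows. The last block was 5 adjacent windows from 26696787 to 26697036, with signal values of 1.97, 1.24, 1.02, 1.53 and 2.07 in order of position, so both ends of the block were higher than its middle.

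The signal value and the p-value did not rank the ARID1A windows alike. The smallest p-value, 2.09e-07, belonged to the ninth window, at 26696987 to 26697036, where the q-value was 2.91e-05. Next to it, the window at 26696937 had a p-value of 1.8e-06 although its signal value of 1.53 exceeded only 24.2% of all listed windows. The windows at 26696037 and 26696387 had the same p-value, 0.000254, and the same signal value. Of the 9 windows, 3 met the q-value limit of 0.001.

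ARID1B (ENSG00000049618, plus strand of chromosome 6) takes the place of ARID1A in a separate set of BAF complexes. Its 9 windows covered a similar stretch, 1150 bases from position 156777421 to 156778570, or 0.265% of a gene of 434754 bases. The first window began at base 1396 of the gene, and at base 44 from a further start that the RefSeq promoter table gives for ARID1B. In order of position the signal values were 1.80, 2.17, 2.25, 2.55, 1.94, 1.80, 1.22, 1.63 and 2.41. The strongest window, at 156778021 to 156778070, had a q-value of 1.83e-07 and exceeded 89.2% of all listed windows. It opened a block of 4 adjacent windows that fell from 2.55 at its 5′ end to 1.22 at its 3′ end. The ninth window, at 156778521, was the second strongest, with a q-value of 4.83e-05. The limit of 0.001 was met by 4 of the 9. ARID1A and ARID1B are paralogs, and how reads matching both were treated is unknown, so values of either gene may include reads of the other.

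**Figure D2:**
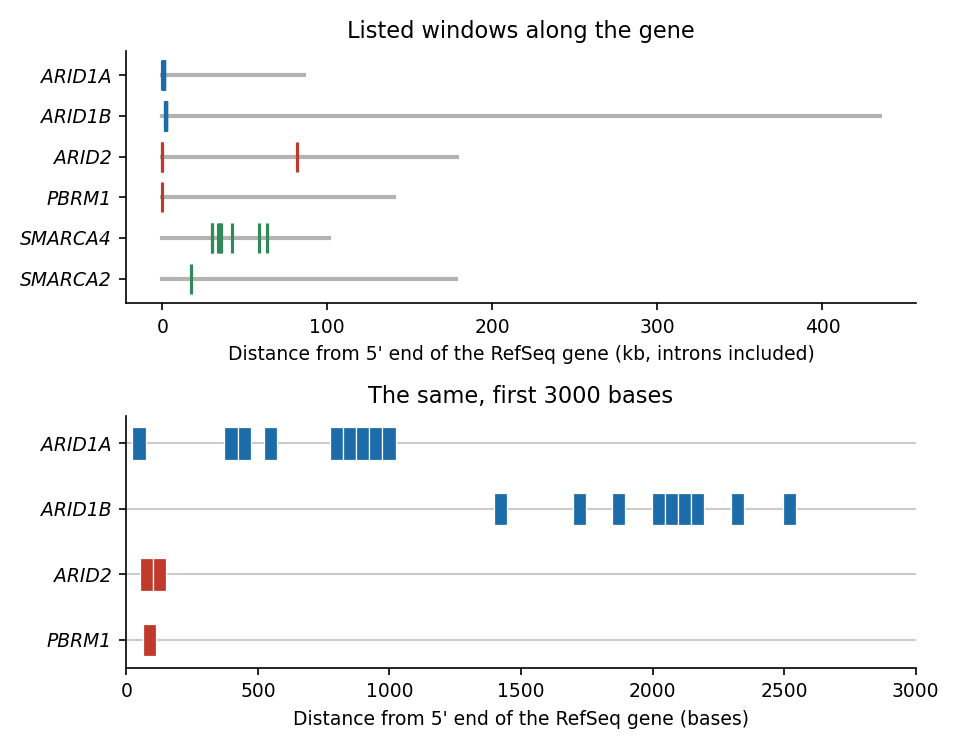
Listed windows of the 6 genes by distance from the 5′ end of the RefSeq gene, in kilobases with introns included (upper panel, grey line for the length of the gene) and in bases for the beginning of 4 genes (lower panel, each box 1 window of 50 bases). The ARID1A windows lie between bases 23 and 1022 and those of ARID1B between bases 1396 and 2545, while the SMARCA4 windows begin at base 30147.

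The crowding of ARID1A and ARID1B windows at the 5′ end has to be read against how the list ends. Within every listed gene the windows were numbered along the genome from 1 without a gap, and no number exceeded 9. The q-values were read as a Benjamini-Hochberg adjustment made within each gene. Then q over p equals the number of tested windows over a window's place in the gene's own order of p-values. The exception is a q-value set by a later window, which gives no place. A number of tested windows was found for 6563 of 6679 listed protein-coding genes, and a gene with 1 window cannot check the reading. In ARID1A the 9 listed windows fitted a total of 140 tested windows and reached place 18, which leaves 9 places without a listed window. In ARID1B they fitted 146 tested windows and reached place 19, which leaves 10. At these inferred numbers, at least 18 windows of ARID1A (12.9% of those tested) and 19 of ARID1B (13.0%) had passed the q-value limit of 0.05. The median of this share over listed protein-coding genes was 9.09%, and 14.9% over those with 9 listed windows. The unlisted windows carry no position in the table, and a lack of YTHDF1 windows in the rest of either gene cannot be read from it.

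More places than listed windows were found in 65.6% of 771 protein-coding genes with 9 windows, and in 0.309% of 3882 genes with 2 to 8 windows. At least 18 places, as in ARID1A and ARID1B, were implied in 7.26% of the former. The listed stretch of ARID1A was short for a gene with 9 windows, but it covers only 9 of at least 18 windows. The median number implied in protein-coding genes with 9 listed windows was 10, so the stretches compared next cover unlike parts of their genes' windows. In 366 plus-strand protein-coding genes with 9 windows the median stretch was 17550 bases, and it was shorter than that of ARID1A in 17.5%. A stretch of at most 1500 bases, as in both ARID1 genes, was seen in 22.4%.

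**Figure D3:**
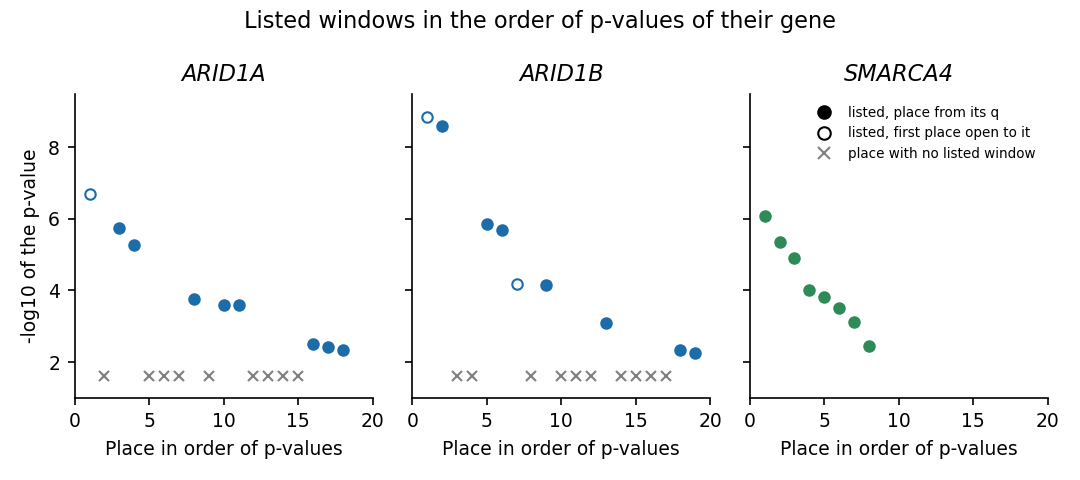
p-value (as −log10, vertical axis) of the listed windows of ARID1A, ARID1B and SMARCA4 against their place in the order of p-values within the gene. Filled points have a place given by their own q-value, open points are drawn at the first place open to them, and crosses are places with no listed window; there are 9 crosses in ARID1A, 10 in ARID1B and 0 in SMARCA4.

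SMARCA4 (ENSG00000127616, plus strand of chromosome 19), also known as BRG1, is an ATPase motor of the complex. Its 8 windows took places 1 to 8 of 102 tested windows, so no place was without a listed window. They were spread over 33250 bases, from position 10991176 to 11024425, which is 32.8% of the gene. The shorter listed stretches of ARID1A and ARID1B leave out windows that had passed, so they cannot be compared with this spread. No SMARCA4 window lay before base 30147 or in the last 37848 bases of the gene. The first began at base 7053 from the nearest start that the RefSeq promoter table gives for SMARCA4. In order of position the signal values were 1.58, 0.98, 0.85, 1.10, 1.98, 1.47, 1.75 and 2.13. Their median of 1.525 was under the lower quartile of all listed windows (1.54), and the only windows of the 6 genes with values under 1 were 2 of SMARCA4. The strongest, at 11024376 to 11024425, was also the 3′-most, with a q-value of 0.000421. The smallest q-value, 8.47e-05, belonged to the 5′-most window at 10991176, whose signal value was 1.58. Of the 8, 3 met the limit of 0.001.

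SMARCA2 (ENSG00000080503, plus strand of chromosome 9), also known as BRM, is the alternative ATPase. It had 1 window among 34 tested, at position 2032991 to 2033040, beginning at base 17645 of the gene. Its signal value was 1.92 and its q-value 0.0206. The ATPase paralogs thus had 7.84% and 2.94% of their tested windows listed, SMARCA4 and SMARCA2 respectively. The number of tested windows differed as well, and the depth of either transcript is unknown.

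ARID2 (ENSG00000189079, plus strand of chromosome 12), the AT-rich-domain subunit of PBAF, had few windows with high values. A pair of adjacent windows lay 52 to 151 bases into the gene, at 45729757 to 45729856, with signal values of 2.26 and 2.48 and q-values of 3.89e-05 and 1.17e-06. The third was 81600 bases further on, at 45811457 to 45811506, with a signal value of 2.26 (q-value 3.89e-05). All 3 were above the upper quartile of all listed windows (2.19), and all 3 passed a q-value of 0.001. The q-values fitted 64 tested windows and 3 places, all of them held by a listed window. The RefSeq promoter table holds no entry for ARID2.

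PBRM1 (ENSG00000163939, minus strand of chromosome 3), which reads acetylated histones through its bromodomains, had 1 window among 49 tested. It lay 62 to 111 bases from the 5′ end of the gene, at 52685803 to 52685852, and its central bases are shown above. Its signal value was 1.88 and its q-value 0.03354, the largest among the strongest windows of the 6 genes.

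Windows close to the 5′ end were thus common among these genes, but they were also common elsewhere. A window that began within 1000 bases of the 5′ end was listed for ARID1A, ARID2 and PBRM1, 3 of the 6 genes, and for 49.4% of 6258 listed protein-coding genes. Within 1500 bases, ARID1B was added, which gave 4 of 6 against 52.5%. At the other end, none of the 6 genes had a listed window that finished within 1000 bases of its 3′ end, next to 10.3% of listed protein-coding genes. For ARID1A and ARID1B this covers the listed windows only, and others that had passed have no known position. Of the 4 genes with 8 or fewer windows, ARID2, PBRM1, SMARCA2 and SMARCA4, 0 had such a window, next to 10.7% of 5498 listed protein-coding genes with 8 or fewer. Exons and untranslated regions were not analysed here, and distances include introns.

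The next comparison was with 21 further SWI/SNF subunits from a fixed list. A window was listed for 12 of them (57.1%), close to the 60.0% of the 10 genes above, and the median of their strongest signal values was 2.185. In the core, SMARCD1 had 3 windows and SMARCD2 had 2, and SMARCD3 had none. Among the actin-related and other subunits that sit with the ATPase, ACTL6A had 3 windows, ACTB 4, BCL7A 4, BCL7B 2 and SS18 1, and none was listed for ACTL6B, BCL7C and SS18L1. All 3 subunits that mark the non-canonical form of the complex had windows, BRD9 with 4, BICRA with 3 and BICRAL with 3. In BICRA, 2 of the 3 overlapped one of another gene. The PBAF subunits BRD7 and PHF10 had none. Of the double PHD finger subunits of BAF, DPF1 had 1 and DPF2 had 2, and DPF3 had none, nor had BCL11A and BCL11B. ACTB held the largest signal value of the 21, 2.56, and a window with a value of 0.87. The 12 listed subunits had between 1 and 4 windows each, fewer than the 8 or 9 of SMARCA4, ARID1A and ARID1B. They also had fewer tested windows, from 6 in ACTL6A to 75 in BICRAL, against 102 in SMARCA4, 140 in ARID1A and 146 in ARID1B. Listed were 3 of 6 tested in ACTL6A and 3 of 75 in BICRAL. The counts thus do not rank these genes by the share of tested windows.

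**Figure D4:**
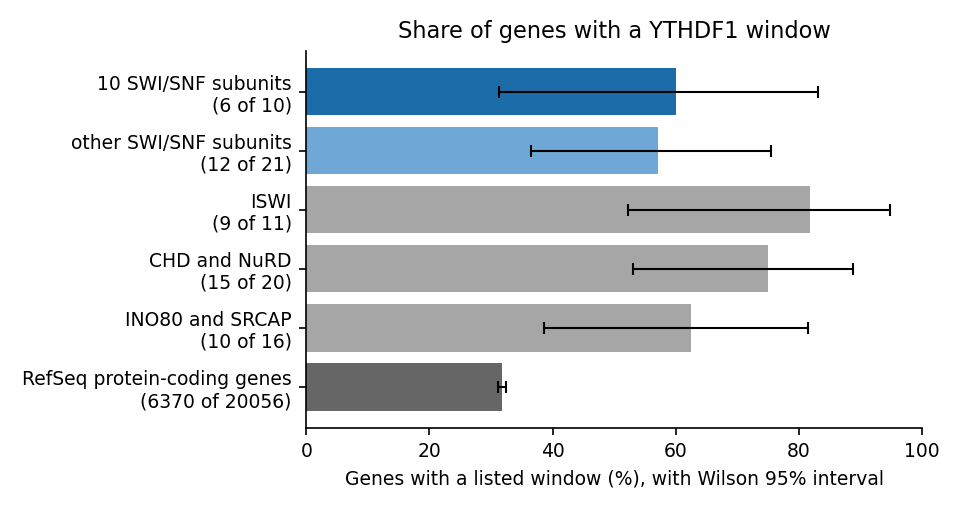
Share of genes with at least 1 listed window (horizontal axis, percent) for the 10 SWI/SNF subunits, 21 further subunits, 3 other families of chromatin remodellers and all RefSeq protein-coding genes, with the counts beside each bar. Error bars are Wilson 95% intervals. All 5 lists of remodellers lie above the 31.8% of all genes, and their intervals overlap each other. The interval of the 10 subunits, 31.3% to 83.2%, includes that 31.8%, and those of the other lists do not.

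The other families of chromatin remodellers had shares that were no lower than that of SWI/SNF. A window was found for 9 of 11 ISWI genes (81.8%), 15 of 20 CHD and NuRD genes (75.0%) and 10 of 16 INO80 and SRCAP genes (62.5%). The medians of the strongest signal values were 2.51, 2.29 and 2.595, against 2.15 for the 6 SWI/SNF genes. Their ATPases SMARCA5, CHD4 and INO80 had 4, 9 and 3 windows, and the strongest of these had signal values of 2.58, 2.39 and 3.33. In CHD4, 2 of the 9 windows overlapped a window of another gene. The q-value limit of 0.001 was met by a window of 4 of the 10 SWI/SNF genes, against 7 of 11, 14 of 20 and 8 of 16 in the 3 families and 21.2% of RefSeq protein-coding genes. A signal value of at least 2 was reached by the same number, 4 of the 10, against 22.0%. The lists were set side by side without a test, since they were chosen with results of these data known.

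Finally, the listed windows of ARID1A were set against those of 852 other protein-coding genes with 9 windows, by the Euclidean distance between sorted signal values. The nearest were PTGFRN at a distance of 0.262, C5orf24 at 0.295 and FBXW2 at 0.342, and the median distance was 1.06. PTGFRN ran from 1.10 to 2.18, C5orf24 from 1.25 to 2.21 and FBXW2 from 1.21 to 2.20, next to 1.02 to 2.17 in ARID1A. The paralog ARID1B, at a distance of 0.805, was further from ARID1A than 238 of the 852 genes. The measure is over 9 windows of 1 table and says nothing of where in the gene they lie.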

How the data were processed

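A Magna RIP kit was used for the pull-down per the labels, and a stranded kit with ribosomal RNA removal for the libraries. The submitters' processing notes name STAR 2.7.3a and GRCh38. The study describes its protein-coding peaks as a union over replicates, and how the deposited table relates to that union is not stated. It reports fewer genes with enriched mRNA than the 6679 protein-coding genes listed here, so the sets are not the same. The peak caller, the annotation and the treatment of multi-mapping reads are not given in the sources used here. The authors deposited 1 table of annotated 50-base windows. Its signal value and its rank are treated as a score given by the authors, with no stated scale, and its p-value and q-value per window are the authors' deposited values.

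Of 26820 rows, 1 repeated another and was dropped. Starts counted from 0 were turned into positions from 1. For 97.3% of the 23641 coding windows with a unique RefSeq symbol, the window lay inside that gene in GRCh38.p14, from which gene ends were taken. Of 6674 protein-coding symbols, 6370 (95.4%) matched RefSeq. For each gene a number of tested windows was computed from p-values above 1e-14. It was the number at which the most listed windows took a place from their printed p-values and q-values. Among equally good numbers the smallest was kept. A number was found for 6563 of 6679 listed protein-coding genes. It is a best fit and not a strict lower bound. The method was tried only on simulated data, with independent p-values and listed windows drawn at random. That trial does not cover the tied p-values and genome order of these windows. The Bonferroni limit was a p-value of 1.61e-07 over 310018 windows.

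The 10 genes and the lists were chosen with earlier results of these data known. All 10 are named, with each further SWI/SNF subunit by its count, the ATPases SMARCA5, CHD4 and INO80, and the 3 genes nearest to ARID1A. The planned test of IP-YTHDF1 against input by edgeR was not run, because no column holds counts of single libraries. Shares have Wilson 95% intervals. Scripts ran in Python 3.11.15 with NumPy 2.4.6, pandas 2.3.3, matplotlib 3.10.9 and SciPy 1.17.1.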

Additional observations from a re-analysis of the deposited data

How the results depend on the processing

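No paired analysis was possible because each window has a single value that belongs to no one replicate. For the same reason the fit with a replicate block and the removal of each replicate were not run. Windows by transcript part, DRACH in whole or extended windows and GGAC in whole windows were not run either, since no genome or exon annotation was used here.

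A Bonferroni limit over the 310018 windows counted as tested in the listed genes (a p-value of 1.61e-07) left 2 of the 10 genes, ARID1B and ARID2, with 3 windows, next to 12.5% of RefSeq protein-coding genes, and 3 of the 21 further subunits. ARID1A fell just outside it, its smallest p-value being 2.09e-07. A q-value of at most 0.001 left 13 of the 31 windows and a signal value of at least 2 left 12, each in ARID1A, ARID1B, ARID2 and SMARCA4, as the stricter limits imply. Joined windows gave 20 regions, and the windows implied by the q-values, a count added after the data were seen, came to 50. The median strongest signal value of 2.15 moved by less than 1 SD over the 6 genes (0.278) in 3 alternatives. It was 2.025 without genes at 9 windows, against 2.19 in protein-coding genes, and 2.325 at a q-value of at most 0.001, against 2.42. With the median window of each gene it was 1.93 against 1.91, so the order of the SWI/SNF genes and all genes turned. Leaving out windows that overlap another gene changed neither count of the 10 genes nor the 12 further subunits listed. It leaves BICRA with 1 of its 3 windows and none for MTA1, a CHD and NuRD gene named after its values were seen, whose 2 windows both overlap.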
